A study of Homo sapiens with 18 samples.

Results

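TRIM proteins are a large family of ubiquitin ligases, named for a tripartite motif of RING finger, B-box and coiled coil. The RING finger recruits a ubiquitin-loaded E2 enzyme, and the C-terminal domain chooses the protein that receives the ubiquitin. Part of the family is transcribed from promoters bound by ISGF3, a complex with IRF9 as DNA-binding subunit that type I interferon activates, and serves in antiviral defence, while other members act at any time in chromatin, at microtubules, in muscle or in neurons. Both kinds were measured in 786-O, a clear cell renal carcinoma line that lacks functional VHL, the ubiquitin ligase subunit that marks HIF for destruction. The family was followed to see which of its members changed after shRNAs against PBRM1, a subunit of the PBAF chromatin remodelling complex, or KDM5C, a histone H3 lysine 4 demethylase.

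Members were the genes whose symbol is TRIM followed by a number, with a further L allowed, and 44 of the 13141 genes in the table met this rule. The 6 groups of 3 arrays were VHL-/- 786-O cells and 786-O cells with VHL restored (VHL+/+), each with a scramble shRNA (SCR), a PBRM1 shRNA or a KDM5C shRNA. All cells came from 1 cell line and each target had 1 shRNA, so an effect of the target and an effect of that shRNA alone cannot be told apart. The labels do not say that the 3 arrays of a group came from separate cultures, and p-values measure the spread between these arrays. Each array holds RNA of many cells, so that fewer cells with a transcript and less transcript per cell cannot be told apart.

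Values are log2 signals, and a difference of 1 is a 2-fold change. Each group had its replicates 1 and 2 on chip 1 and its replicate 3 on chip 2, and the chips differed for 3130 of all genes and for 9 of the 44 TRIM genes at adjusted p under 0.05 in limma. Differences between groups were therefore tested in limma with a term for the chip. A gene passes when its adjusted p is under 0.05, and it is called when its fold is also 1.5 or more. PBRM1 itself differed by -0.06 (adjusted p = 0.864, limma) in VHL-/- cells and by -0.15 (adjusted p = 0.639) in VHL+/+ cells between its shRNA and SCR. The arrays labelled PBRM1 shRNA thus did not show a fall of PBRM1 RNA, whose row lay at percentile 40.4 of mean signal. Arrays do not measure protein, so whether the shRNA lowered PBRM1 protein cannot be read from them. KDM5C has no row in the table, and VHL differed by 0.08 (adjusted p = 0.766) between the SCR groups. The groups are named by their labels, and each direction rests on those labels. Of the kidney carcinoma markers, VIM lay at percentile 99.7 of mean signal, NNMT at 91.2, KRT8 at 85.3 and PAX8 at 66.8. KRT18 lay at 41.1 and EPCAM at 39.1, below the middle of all genes, while PAX2 and CA9 had no row. None of 4 leukocyte markers had a row, and PECAM1 of endothelium and COL1A1 of fibroblasts lay at percentiles 11.1 and 17.8.

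Interferon-inducible members were taken from a list of 10 genes, of which TRIM5, TRIM21, TRIM22, TRIM25, TRIM26, TRIM38 and TRIM56 had a row. The other 37 members included the chromatin-binding TRIM24, TRIM28, TRIM33 and TRIM66, and muscle or neuronal members such as TRIM63 and TRIM9. Mean log2 signal over the 18 arrays ran from 6.70 for TRIM17 to 10.34 for TRIM8, and probes of different genes cannot be ranked by abundance. TRIM8 (10.34), TRIM44 (9.57) and TRIM4 (9.45) had the brightest probes. TRIM17 (6.70), TRIM63 (6.74) and TRIM43 (6.74) had the dimmest. The dimmest 0.25 of all genes, below 6.90, held 12 of the 44 members, and there the probes leave least room to measure a fall.

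The range of the 6 group means was under 0.2 for 23 of the 44 genes. It was smallest for TRIM7 (0.086), TRIM23 (0.086) and TRIM3 (0.087), at percentiles 10.0, 26.5 and 13.2 of mean signal. The 23 genes include all 12 members with a mean signal below 6.90. So dim the probes leave little room to vary, and a small range there cannot show stable expression. The share of all genes with such a range was not counted. The range was largest for TRIM22 (0.92), TRIM25 (0.66) and TRIM9 (0.60). TRIM22 and TRIM25 are inducible by interferon, and TRIM9 is a ligase enriched in neurons that takes part in axon branching.

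In VHL-/- cells, TRIM22 and TRIM25 were lower with the PBRM1 shRNA and no member was called higher. TRIM22, an antiviral ligase strongly induced by interferon, gave log2 signals of 7.95, 8.11 and 8.34 on the SCR arrays. It gave 7.06, 6.94 and 7.63 on the PBRM1 shRNA arrays and 7.32, 7.13 and 7.75 on the KDM5C shRNA arrays. All 6 shRNA arrays lay below all 3 SCR arrays, and the chip 2 array was the highest of each group. TRIM22 was 1.90-fold lower with the PBRM1 shRNA (log2 fold change -0.92, standard error 0.11, adjusted p = 7.99e-05, limma). With the KDM5C shRNA it was 1.66-fold lower (log2 fold change -0.73, standard error 0.11, adjusted p = 0.000633, limma). Without the chip term the adjusted p was 0.101 for the PBRM1 shRNA and 0.238 for the KDM5C shRNA, since TRIM22 was 0.61 higher on chip 2 (adjusted p = 8.22e-06). Within chip 1 the difference was -1.03 for the PBRM1 shRNA and -0.80 for the KDM5C shRNA, with 2 arrays a group, and within chip 2 it was -0.71 and -0.59, with 1 array a group.

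TRIM25, the ligase that attaches ubiquitin to the RNA sensor RIG-I, gave 9.16, 9.12 and 8.53 on the VHL-/- SCR arrays. It gave 8.33, 8.30 and 8.21 on the PBRM1 shRNA arrays, all below the SCR arrays, and 8.73, 8.30 and 8.14 on the KDM5C shRNA arrays, of which 1 lay among the SCR arrays. It was 1.58-fold lower with the PBRM1 shRNA (log2 fold change -0.66, standard error 0.15, adjusted p = 0.0123, limma). With the KDM5C shRNA it was 1.46-fold lower (log2 fold change -0.55, standard error 0.15, adjusted p = 0.0404), which passed without reaching the fold of 1.5. SCR replicates 1 and 2, both on chip 1, stood apart from every other array of TRIM25. For the PBRM1 shRNA the adjusted p rose to 0.0710 without SCR replicate 1, to 0.0685 without SCR replicate 2 and to 0.0599 without PBRM1 shRNA replicate 2, at log2 fold changes of -0.58, -0.60 and -0.63. For the KDM5C shRNA TRIM25 did not pass without any 1 of SCR replicates 1 and 2 and KDM5C shRNA replicates 2 and 3 (adjusted p = 0.176, 0.157, 0.146 and 0.126), VHL-/- PBRM1 shRNA replicates 1 and 2 (0.0522 and 0.0516) or replicate 2 of each VHL+/+ group (0.0510 to 0.0526), and it was called without SCR replicate 3 (-0.70) or KDM5C shRNA replicate 1 (-0.69). Within chip 2 its difference was -0.32 for the PBRM1 shRNA and -0.39 for the KDM5C shRNA, against -0.82 and -0.62 within chip 1.

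**Figure D1:**
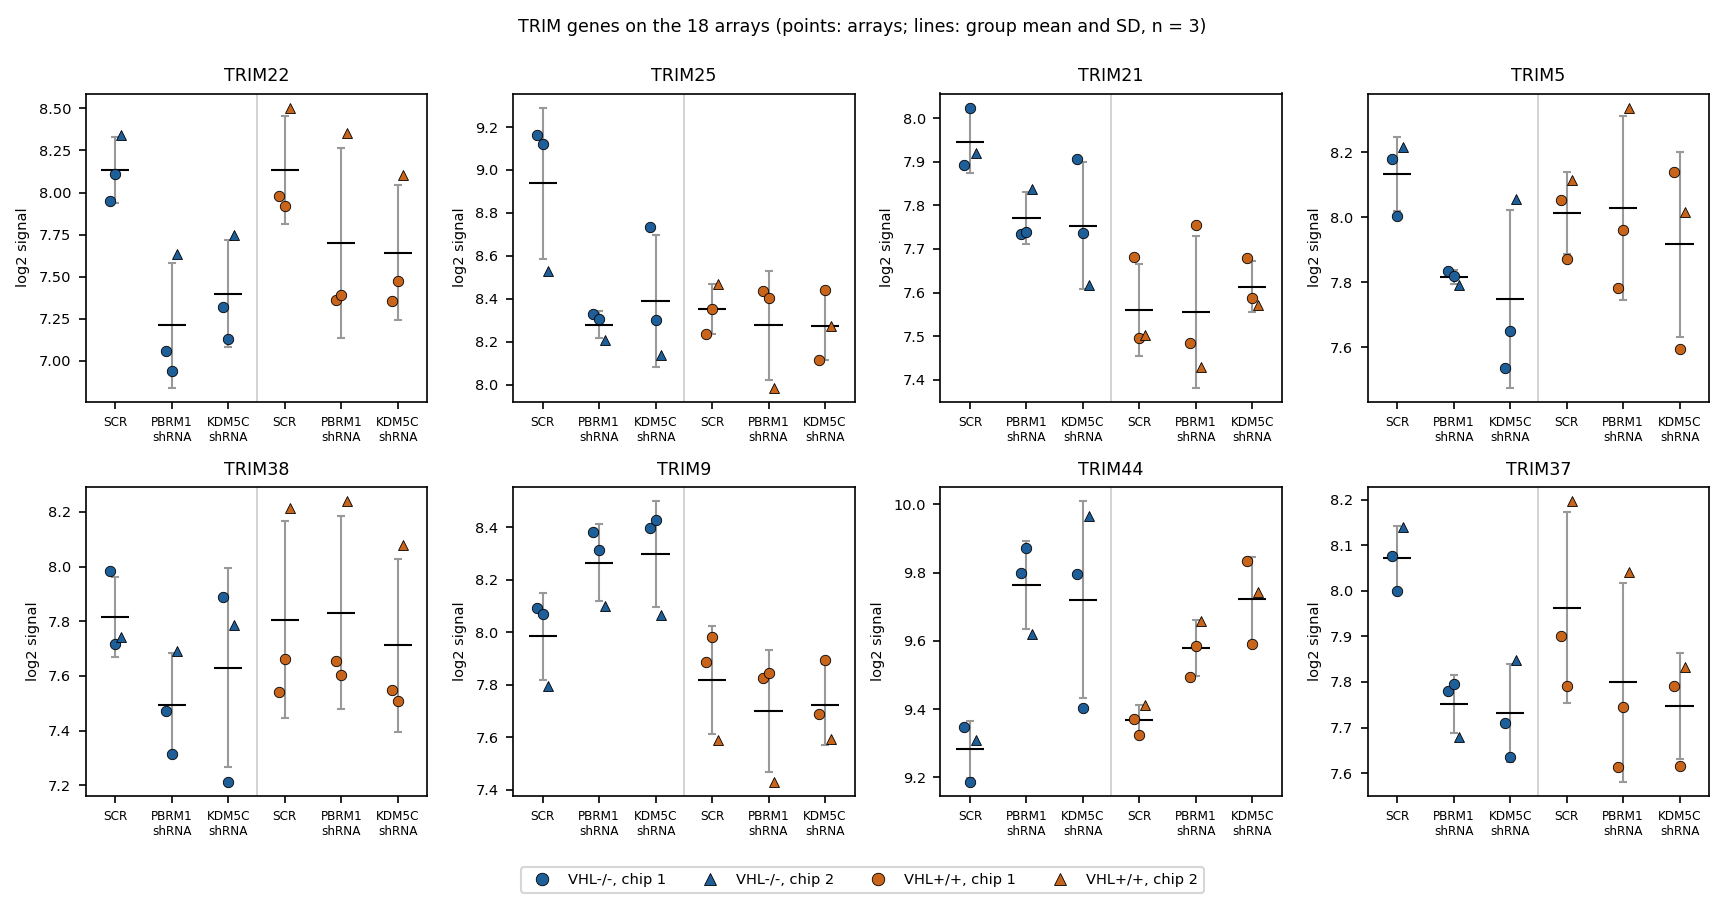
Log2 signal (vertical axis) of 8 TRIM genes in the 6 groups (horizontal axis), with VHL-/- cells in blue and VHL+/+ cells in orange, circles for chip 1, triangles for chip 2, and lines for the mean and SD of 3 arrays. TRIM22 runs from 7.95 to 8.34 on the VHL-/- SCR arrays and from 6.94 to 7.75 on the VHL-/- shRNA arrays, and the chip 2 triangle is the highest point of each TRIM22 group.

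The other 5 inducible members did not pass in either shRNA comparison of VHL-/- cells. TRIM5, which blocks incoming retroviral capsids, gave 8.18, 8.00 and 8.21 with SCR, 7.83, 7.82 and 7.79 with the PBRM1 shRNA, and 7.54, 7.65 and 8.06 with the KDM5C shRNA. The PBRM1 shRNA arrays lay below the SCR arrays without overlap, and the log2 differences were -0.32 (95% interval -0.59 to -0.04, adjusted p = 0.191, limma) and -0.38 (95% interval -0.66 to -0.11, adjusted p = 0.107). TRIM21, a cytosolic antibody receptor that directs antibody-coated virus to the proteasome, gave 7.89, 8.02 and 7.92 with SCR, 7.73, 7.74 and 7.84 with the PBRM1 shRNA, and 7.91, 7.74 and 7.62 with the KDM5C shRNA. Its log2 differences were -0.17 (95% interval -0.36 to 0.01, adjusted p = 0.315, limma) and -0.19 (95% interval -0.38 to -0.01, adjusted p = 0.267), and a log2 difference of -1 lay outside both intervals. TRIM38, a ligase that restrains innate immune signalling, differed by -0.32 (adjusted p = 0.306) and -0.19 (adjusted p = 0.631). Single arrays moved these values of TRIM38, to -0.17 and -0.033 without SCR replicate 1, to -0.51 and -0.38 without SCR replicate 3, and for the KDM5C shRNA to -0.39 without its replicate 1 and -0.032 without its replicate 2, and neither passed in any of these fits. TRIM26 differed by -0.04 and -0.14, and TRIM56, a ligase linked to sensing of cytosolic DNA, by 0.06 and 0.08.

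**Figure D2:**
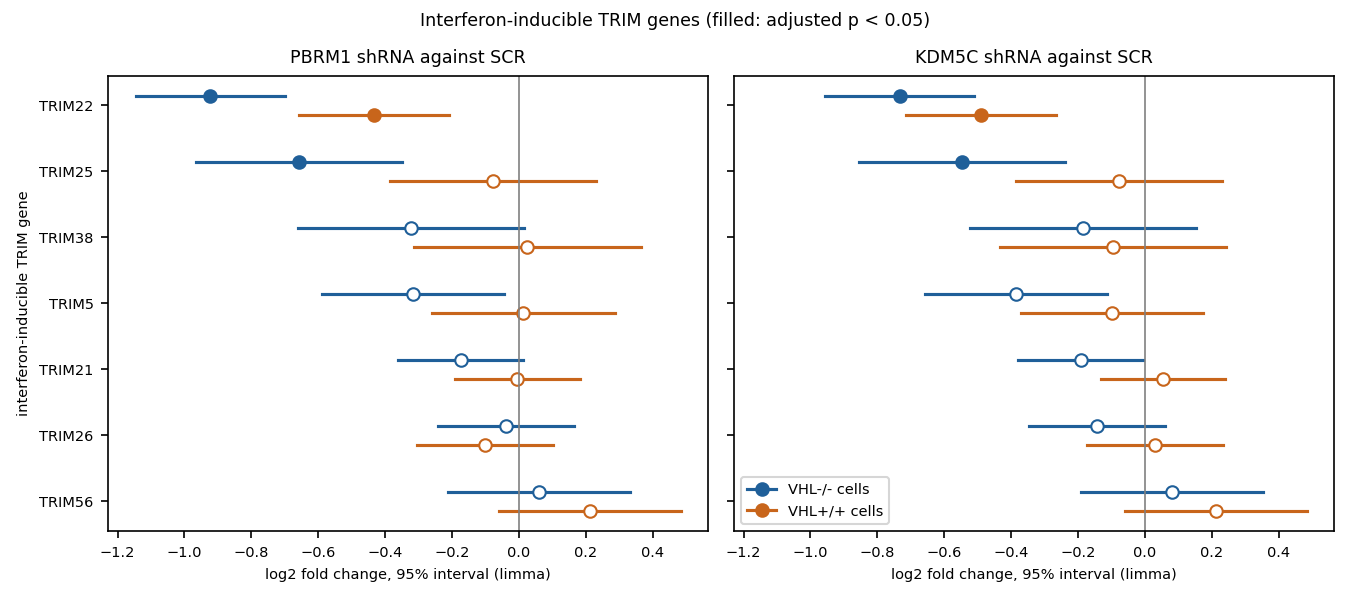
Log2 fold change with its 95% interval from limma (horizontal axis) of the 7 interferon-inducible TRIM genes (vertical axis) for each shRNA against SCR, in VHL-/- cells (blue) and VHL+/+ cells (orange), filled where adjusted p was under 0.05. TRIM22 is filled in all 4 comparisons, at -0.92, -0.43, -0.73 and -0.49, TRIM25 is filled in VHL-/- cells, and the intervals of TRIM26 and TRIM56 span 0.

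Among the other 37 members none was called in any comparison with SCR, where 0.944% to 1.81% of all genes were. Past the adjusted p alone 2 rose and 1 fell, all in VHL-/- cells. With the PBRM1 shRNA 2 of 37 passed there (5.41%), near the 5.43% of all genes. With the KDM5C shRNA 3 of 37 passed (8.11%), against 4.78% of all genes. TRIM44, which lacks a RING finger and carries a ubiquitin-binding zinc finger in its place, gave 9.35, 9.19 and 9.31 on the VHL-/- SCR arrays, 9.80, 9.87 and 9.62 with the PBRM1 shRNA, and 9.79, 9.40 and 9.96 with the KDM5C shRNA. All 6 shRNA arrays lay above the SCR arrays, with log2 fold changes of 0.48 (standard error 0.11, adjusted p = 0.0175, limma) and 0.44 (standard error 0.11, adjusted p = 0.0325). The first was lost without any 1 of SCR replicates 2 and 3 and PBRM1 shRNA replicates 1 and 2, at adjusted p of 0.0849, 0.0640, 0.0734 and 0.0975. The second was lost without any 1 of SCR replicates 1, 2 and 3 and KDM5C shRNA replicates 1 and 3, at adjusted p of 0.0590, 0.131, 0.104, 0.106 and 0.147. TRIM44 was called without PBRM1 shRNA replicate 3 (0.60, adjusted p = 0.00603) and without KDM5C shRNA replicate 2 (0.59, adjusted p = 0.00289). In VHL+/+ cells TRIM44 also lay above SCR on all arrays of both shRNAs, by 0.21 (adjusted p = 0.410) and 0.35 (adjusted p = 0.0893).

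TRIM9 gave 8.09, 8.07 and 7.79 on the VHL-/- SCR arrays, 8.38, 8.32 and 8.10 with the PBRM1 shRNA, and 8.40, 8.43 and 8.07 with the KDM5C shRNA. The chip 2 array was the lowest of each group, and on each chip the shRNA arrays lay above the SCR arrays. The log2 fold changes were 0.28 (standard error 0.07, adjusted p = 0.0212, limma) and 0.31 (standard error 0.07, adjusted p = 0.0123). The first was lost without each of the 3 SCR arrays and without PBRM1 shRNA replicates 1 and 3 (adjusted p from 0.0605 to 0.0848), and the second without SCR replicate 2 (adjusted p = 0.0520). TRIM37, a ligase needed for normal centriole number and named here after its values were seen, fell by 0.34 with the KDM5C shRNA (adjusted p = 0.0414) and differed by -0.32 with the PBRM1 shRNA (adjusted p = 0.0519). The fall of TRIM37 did not pass without any 1 of the 3 SCR arrays (adjusted p = 0.160, 0.108 and 0.0782) or the 3 KDM5C shRNA arrays (adjusted p = 0.0685, 0.116 and 0.0900), nor without VHL+/+ SCR replicate 1, PBRM1 shRNA replicate 2 or KDM5C shRNA replicate 3 (0.0538, 0.0556 and 0.0538).

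Counted over the family, the PBRM1 shRNA in VHL-/- cells gave 2 calls among 44 TRIM genes, both lower and both inducible, where 1.81% of all 13141 genes were called. At the adjusted p alone 4 members passed, 2 lower and 2 higher, against 5.43% of all genes. The KDM5C shRNA in VHL-/- cells gave 1 call, TRIM22, where 1.46% of all genes were called, and 5 members passed, 3 lower and 2 higher, against 4.78% of all genes. The median log2 fold change of the 7 inducible members was -0.32 with the PBRM1 shRNA and -0.19 with the KDM5C shRNA, that of the other 37 members was 0.00 and -0.01, and that of all genes was 0.00 in each. In VHL+/+ cells the median of the 7 inducible members was -0.0042 and -0.077. There 4 of 7 were below 0 for each shRNA, where 49.0% and 50.1% of all genes were below 0. In VHL-/- cells 6 of 7 were below 0 for each shRNA, where 50.2% and 50.7% of all genes were. No member passed the test of a difference between the backgrounds. Both comparisons in VHL-/- cells use the same 3 VHL-/- SCR arrays, so their likeness is in part that of the shared control. Set against each other, the shRNAs gave 0 calls and 0 passing members in VHL-/- cells, where 0% of all genes were called. There 0 of 44 members had an unadjusted p under 0.05 in limma, against 707 of all 13141 genes. TRIM22 differed between the shRNAs by -0.19 (95% interval -0.41 to 0.03, PBRM1 minus KDM5C). In VHL+/+ cells 0% of all genes were called between the shRNAs. There 3 members had an unadjusted p under 0.05 in limma, against 545 of all 13141 genes.

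**Figure D3:**
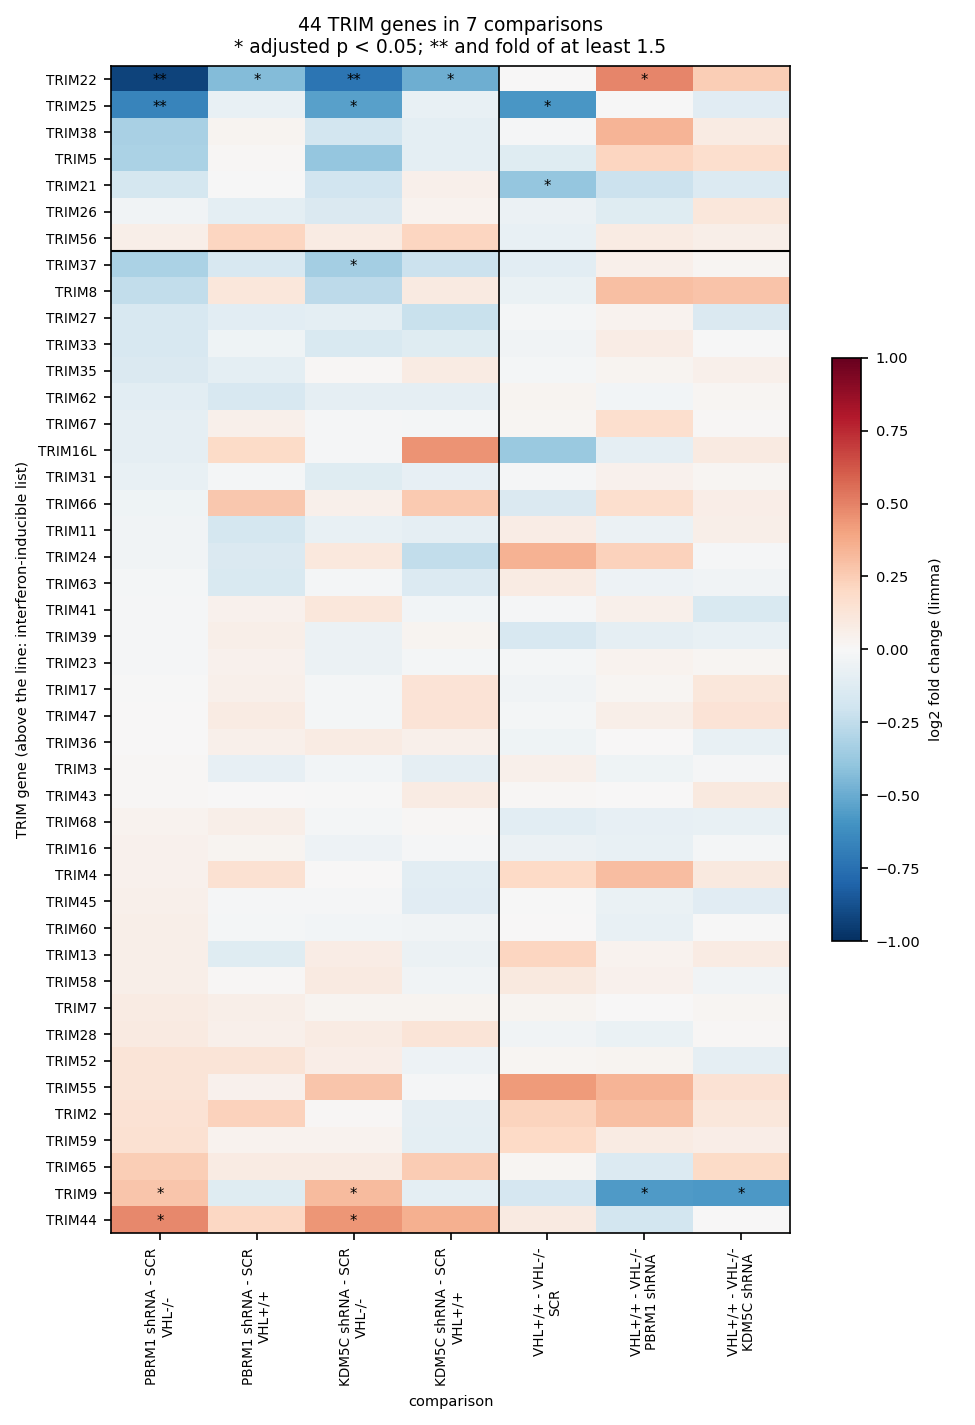
Log2 fold change from limma (colour, blue lower and red higher) of the 44 TRIM genes (rows, with the 7 interferon-inducible genes above the line) in 4 comparisons of an shRNA with SCR and 3 comparisons of VHL+/+ with VHL-/- cells (columns), where 1 star marks adjusted p under 0.05 and 2 stars a fold of at least 1.5 as well. The cells with 2 stars are TRIM22 with both shRNAs and TRIM25 with the PBRM1 shRNA, all in VHL-/- cells.

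In VHL+/+ cells TRIM22 was the 1 member of 44 that passed with either shRNA. It gave 7.98, 7.92 and 8.51 on the SCR arrays, 7.36, 7.39 and 8.35 with the PBRM1 shRNA, and 7.36, 7.47 and 8.10 with the KDM5C shRNA. The chip 2 arrays were the highest of each group, so that groups overlapped as deposited and were apart once the chip effect was removed. TRIM22 was 1.35-fold lower with the PBRM1 shRNA (log2 fold change -0.43, standard error 0.11, adjusted p = 0.0373, limma) and 1.41-fold lower with the KDM5C shRNA (log2 fold change -0.49, standard error 0.11, adjusted p = 0.0153). The first was -0.57 within chip 1 and -0.15 within chip 2, and was lost without any 1 of the 3 VHL+/+ SCR arrays (adjusted p = 0.142, 0.0882 and 0.0917), PBRM1 shRNA replicates 1 and 2 (adjusted p = 0.114 and 0.188), VHL+/+ KDM5C shRNA replicate 2 (0.0519) or VHL-/- SCR replicate 1 (0.0532). The second was -0.53 and -0.40 within the chips and was lost without VHL+/+ SCR replicate 1 (adjusted p = 0.0735) or KDM5C shRNA replicate 1 (adjusted p = 0.0630).

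For the PBRM1 shRNA in VHL+/+ cells 0 of 44 members were called, against 0.944% of all genes, and 1 passed, against 2.49%. An unadjusted p under 0.05 in limma was reached by 2 members and by 2007 of all 13141 genes. For the KDM5C shRNA 0 members were called, against 1.14% of all genes, and 1 passed, against 4.19%. Here 9 of 44 members had an unadjusted p under 0.05 in limma, as had 2414 of all 13141 genes. TRIM25 gave 8.24, 8.35 and 8.47 with SCR, 8.44, 8.40 and 7.99 with the PBRM1 shRNA, and 8.11, 8.44 and 8.27 with the KDM5C shRNA. The groups overlapped, and TRIM25 differed by -0.08 with each shRNA (95% intervals -0.38 to 0.23 and -0.39 to 0.23). The comparisons in VHL-/- and in VHL+/+ cells have no array in common.

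Whether an shRNA effect differed between the backgrounds was tested as such, and 0 of 44 members passed for either shRNA, as did 0% of all genes. For each shRNA 4 members had an unadjusted p under 0.05 in limma, against 553 (PBRM1) and 1014 (KDM5C) of all 13141 genes. The effect of the PBRM1 shRNA on TRIM22 in VHL-/- cells minus that in VHL+/+ cells was -0.49 (95% interval -0.81 to -0.17, unadjusted p = 0.00477, adjusted p = 0.9999, limma). For TRIM25 this difference was -0.58 (95% interval -1.02 to -0.15, unadjusted p = 0.0121, limma). For TRIM9 it was 0.40 (95% interval 0.20 to 0.60, adjusted p = 0.903) with the PBRM1 shRNA and 0.41 (95% interval 0.20 to 0.61, adjusted p = 0.354) with the KDM5C shRNA. None of these differences held after the correction over all genes.

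In cells with SCR, TRIM21 and TRIM25 were lower with VHL at the adjusted p alone. Between the SCR groups 0 of 44 members were called, against 1.03% of all genes, and 2 passed, TRIM21 and TRIM25, against 3.2%. An unadjusted p under 0.05 in limma was found for 8 members and for 2050 of all 13141 genes. TRIM21 gave 7.68, 7.50 and 7.50 on the VHL+/+ SCR arrays, all below the VHL-/- SCR arrays, and was 1.31-fold lower with VHL (log2 fold change -0.38, standard error 0.09, adjusted p = 0.0242, limma). Its difference was -0.37 within chip 1 and -0.42 within chip 2. It no longer passed without VHL+/+ SCR replicates 2 or 3 (adjusted p = 0.0947 and 0.0692) or VHL-/- SCR replicates 1, 2 or 3 (adjusted p = 0.0508, 0.107 and 0.0805). TRIM25 fell by 0.58 (adjusted p = 0.0370, with a fold just short of the call), with -0.85 within chip 1 and -0.06 within chip 2, and no longer passed without VHL+/+ SCR replicates 1 or 2 (adjusted p = 0.198 and 0.118) or VHL-/- SCR replicates 1 or 2 (adjusted p = 0.176 and 0.151). It was called without VHL+/+ SCR replicate 3 (-0.75) or VHL-/- SCR replicate 3 (-0.74). This comparison shares the VHL-/- SCR arrays with both shRNA comparisons. TRIM22 did not follow, at 0.00 (95% interval -0.22 to 0.23, adjusted p = 0.9992).

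In the shRNA cells TRIM9 was lower with VHL, and TRIM22 was higher with VHL in those with the PBRM1 shRNA. With the PBRM1 shRNA 0 of 44 members were called, against 1.02% of all genes, and 2 passed, against 2.37%. An unadjusted p under 0.05 in limma was found for 9 members and for 1770 of all 13141 genes. TRIM22 was 0.49 higher in VHL+/+ cells (standard error 0.11, adjusted p = 0.0188), by 0.38 within chip 1 and by 0.72 within chip 2, and was lost without VHL+/+ PBRM1 shRNA replicate 3 (adjusted p = 0.135) or VHL-/- PBRM1 shRNA replicate 2 (adjusted p = 0.0899). With the KDM5C shRNA 0 members were called, against 0.89% of all genes, and 1 passed, TRIM9, against 2.77%. Here 4 members had an unadjusted p under 0.05 in limma, against 1953 of all 13141 genes. TRIM22 differed there by 0.24 (95% interval 0.02 to 0.47, adjusted p = 0.283).

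TRIM9 gave 7.82, 7.85 and 7.43 on the VHL+/+ PBRM1 shRNA arrays and 7.69, 7.89 and 7.59 on the VHL+/+ KDM5C shRNA arrays. In each case all 3 arrays lay below the 3 arrays of the same shRNA in VHL-/- cells. TRIM9 was 1.48-fold lower with VHL in the PBRM1 shRNA cells (log2 fold change -0.57, standard error 0.07, adjusted p = 0.000158, limma) and 1.49-fold lower in the KDM5C shRNA cells (log2 fold change -0.57, standard error 0.07, adjusted p = 0.000159). These 2 comparisons have no array in common, and neither was lost when any 1 array was left out. The call was reached without VHL+/+ replicate 2 or VHL-/- replicate 2 of the PBRM1 shRNA (-0.59 each), and without VHL+/+ replicates 2 or 3 (-0.61 and -0.62) or VHL-/- replicate 3 (-0.59) of the KDM5C shRNA. Between the SCR groups TRIM9 differed by -0.17 (95% interval -0.31 to -0.02, adjusted p = 0.231).

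Other branches of the family showed no call. In VHL-/- cells 1.81% of all genes were called with the PBRM1 shRNA and 1.46% with the KDM5C shRNA. At the adjusted p alone these shares were 5.43% and 4.78%. Each branch held at most 5 measured genes, so the lack of a call cannot show that a branch was spared. The 4 chromatin-binding members, which join a PHD finger to a bromodomain, ranged from -0.16 to 0.09 with the PBRM1 shRNA and from -0.15 to 0.11 with the KDM5C shRNA in VHL-/- cells, and none passed. This group holds TRIM28, the corepressor of KRAB zinc finger proteins, and TRIM33, a regulator of SMAD4. The 3 measured members with NHL repeats (TRIM2, TRIM3 and TRIM56) ranged from 0.01 to 0.15 with the PBRM1 shRNA, and none passed in any of the 4 comparisons. Of the 5 measured members with a COS box, which binds microtubules, TRIM9 alone passed in VHL-/- cells. The transmembrane TRIM13 and TRIM59 differed by 0.06 and 0.15 with the PBRM1 shRNA. TRIM16L shares sequence with TRIM16, so its difference of 0.45 with the KDM5C shRNA in VHL+/+ cells (adjusted p = 0.109, limma) may hold signal of both. The row of TRIM16, at percentile 14.8 of mean signal, had means of 6.75 with SCR and 6.74 with the KDM5C shRNA there. TRIM16L was called without VHL+/+ SCR replicate 2 (0.60, adjusted p = 0.0449, limma). Of the family under other symbols, PML, the scaffold of nuclear bodies and itself inducible by interferon, differed by -0.15 with the PBRM1 shRNA in VHL-/- cells (adjusted p = 0.322, limma), MID2 by -0.20 (adjusted p = 0.0501) and MID1 by 0.03 (adjusted p = 0.927).

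The RNF genes, a naming group made up largely of other RING ligases, gave 1 call of 70 (1.43%) with the PBRM1 shRNA in VHL-/- cells, against 1.81% of all genes. In VHL+/+ cells with the PBRM1 shRNA, and in VHL-/- and VHL+/+ cells with the KDM5C shRNA, 0 were called by limma. The shares of all genes called there were 0.944%, 1.46% and 1.14%. An unadjusted p under 0.05 in limma was found for 11, 17 and 11 of the 70, against 2007, 2301 and 2414 of all 13141 genes. At the adjusted p alone 2, 1, 2 and 2 of 70 passed (2.86%, 1.43%, 2.86% and 2.86%), against 5.43%, 2.49%, 4.78% and 4.19% of all genes in the same order, and the RNF medians were between -0.04 and -0.02.

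Some genes of type I interferon signalling were also lower, and a link between them and the TRIM values was not tested. Of 18 measured genes of type I interferon signalling, 7 were called lower and 0 higher with the PBRM1 shRNA in VHL-/- cells, where 1.81% of all genes were called, and 5 lower with the KDM5C shRNA, where 1.46% were. In VHL+/+ cells 1 was called lower with each shRNA, where 0.944% and 1.14% of all genes were called. For either shRNA 0 of the 18 passed the limma test of the difference between the backgrounds, as did 0% of all genes. An unadjusted p under 0.05 in this test was found for 5 and 4 of the 18, against 553 and 1014 of all 13141 genes. IRF9, the DNA-binding subunit of ISGF3, gave 9.88, 10.04 and 9.97 on the VHL-/- SCR arrays, 8.62, 8.40 and 9.03 with the PBRM1 shRNA and 8.75, 8.63 and 9.25 with the KDM5C shRNA, with no overlap. It fell by 1.29 and 1.09 (adjusted p = 8.77e-05 and 0.000419, limma), and in VHL+/+ cells by 0.87 and 0.85 (adjusted p = 0.00363 and 0.00399). STAT2, a further subunit of ISGF3, fell by 0.88 and 1.01 in VHL-/- cells (adjusted p = 0.0129 and 0.00590), and DDX58, which encodes the TRIM25 substrate RIG-I, fell by 0.72 and 0.69 (adjusted p = 0.00327 and 0.00505). The receptor chain IFNAR2 and the kinase TYK2 differed by 0.01 and 0.02 with the PBRM1 shRNA.

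Ubiquitin machinery outside the family moved in a few places. UBE2L6, the E2 enzyme that carries the ubiquitin-like protein ISG15, gave 10.09, 9.93 and 9.95 on the VHL-/- SCR arrays, 8.44, 8.45 and 9.02 with the PBRM1 shRNA and 8.74, 8.59 and 9.06 with the KDM5C shRNA. The groups did not overlap, and UBE2L6 fell by 1.36 and 1.20 (adjusted p = 0.000192 and 0.000626, limma), the 1 call among 13 measured E2 enzymes in each comparison, where 1.81% and 1.46% of all genes were called. Of 8 measured ubiquitin or ISG15 ligases linked to interferon, 2 were called with the PBRM1 shRNA and 1 with the KDM5C shRNA, against the same shares of all genes, and all were lower. HERC6, an interferon-induced HECT ligase, fell by 1.16 and 1.01 (adjusted p = 0.0107 and 0.0266, limma). It gave 9.14, 9.22 and 8.33 on the VHL-/- SCR arrays, 7.52, 7.44 and 8.25 with the PBRM1 shRNA, and 7.93, 8.13 and 7.59 with the KDM5C shRNA. On chip 2 the SCR array (8.33) and the PBRM1 shRNA array (8.25) lay close, so the fall with the PBRM1 shRNA rests on the chip 1 arrays. DTX3L fell by 0.72 with the PBRM1 shRNA (adjusted p = 0.0218). The main ISG15 ligase HERC5 differed by -0.51 with the PBRM1 shRNA (adjusted p = 0.289) and fell by 1.28 with VHL between the SCR groups (adjusted p = 0.00863).

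**Figure D4:**
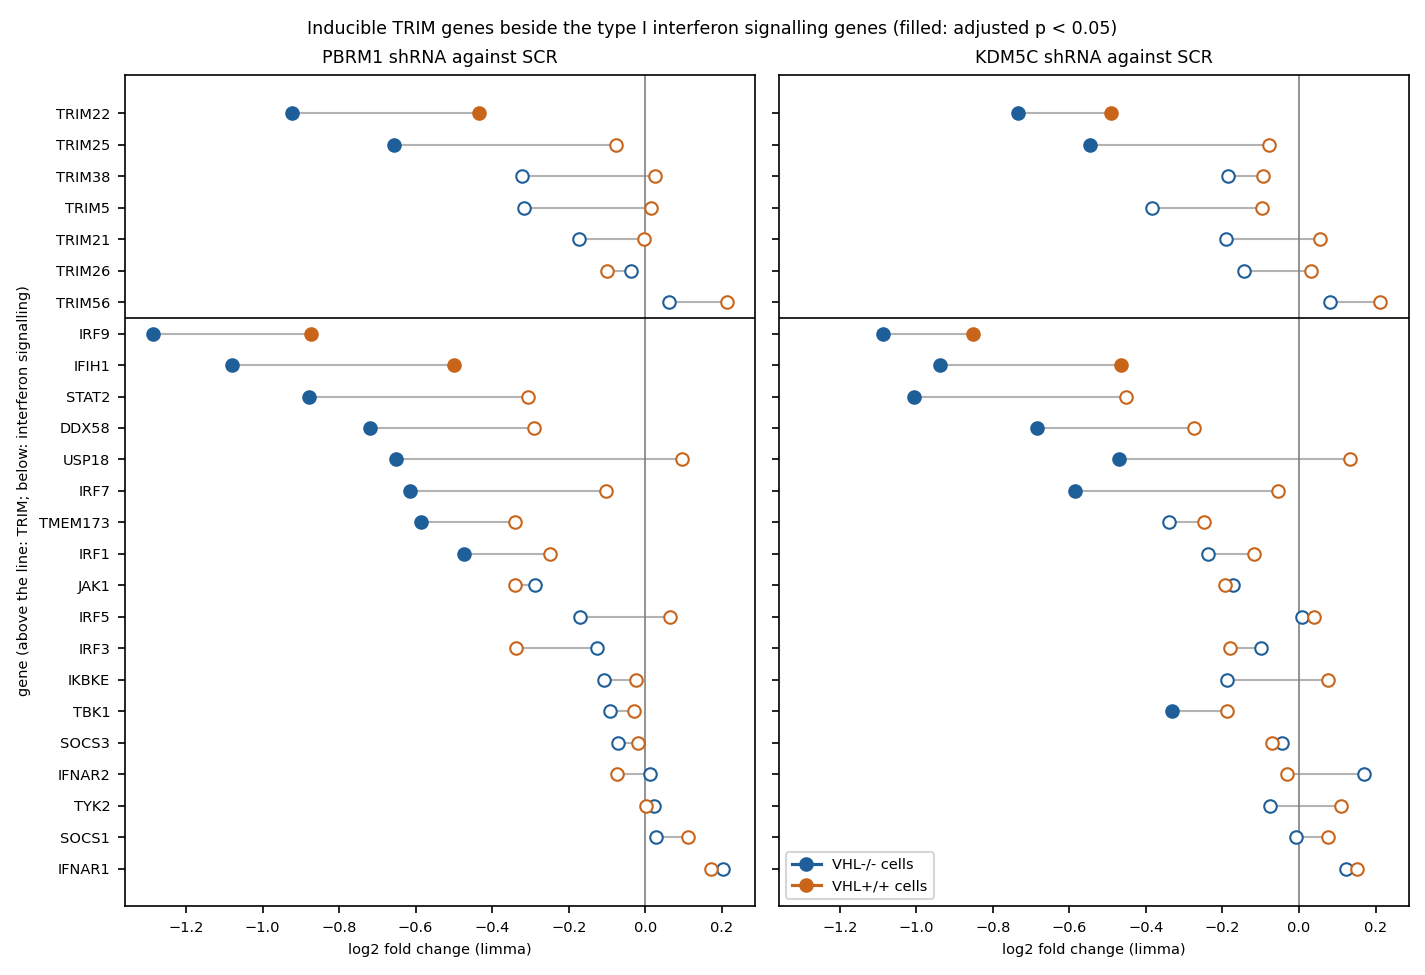
Log2 fold change from limma (horizontal axis) of the 7 interferon-inducible TRIM genes (above the line) and 18 type I interferon signalling genes (below it) for each shRNA against SCR, with VHL-/- cells in blue, VHL+/+ cells in orange and filled points at adjusted p under 0.05. IRF9 lies farthest to the left at -1.29 and -1.09 in VHL-/- cells, and TRIM22 at -0.92 and -0.73 is the lowest TRIM gene in each panel.

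Promoters of the members were read from RefSeq (GRCh38.p14) as windows from 250 bases before to 50 after each start, and 30 of the 44 members had one. Each window was searched on both strands, with overlaps allowed, for GAAANNGAAA, the core repeat of the element that ISGF3 binds. The repeat stood in at least 1 window of 6 of 30 members, which had 43 windows together, several of them more than 1. Of all 35116 windows 3.57% held it, which is a share of windows and not of genes, so these shares are not alike. It was in 3 of 6 inducible members with a window (TRIM5, TRIM21 and TRIM26) and in 3 of 24 others (TRIM2, TRIM16 and TRIM44). TRIM22 has no entry in that table. TRIM25, TRIM38 and TRIM56 had no match in their windows. The 30-base stretches of 4 members are shown to set the repeat beside the measurements, with the matched bases in capitals and each written along the strand of its gene.
TRIM21, chr11:4393663-4393692, minus strand: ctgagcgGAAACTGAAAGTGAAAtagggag
TRIM5, chr11:5685082-5685111, minus strand: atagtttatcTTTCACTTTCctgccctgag
TRIM26, chr6:30213578-30213607, minus strand: cgcctgaTTTCAGTTTCCATTTCgctgccc
TRIM44, chr11:35662730-35662759, plus strand: tcctgacgggGAAAGGGAAAgtggaaccgg

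TRIM21 held 2 overlapping matches on its own strand, from 18 to 33 bases after the start, and TRIM26 held 2 on the opposite strand. TRIM5 held 1 on the opposite strand, from 27 to 18 bases before the start, and TRIM44 held 1 on its own strand, from 35 to 26 bases before it. Of these genes TRIM44 rose in VHL-/- cells at the adjusted p, and TRIM5, TRIM21 and TRIM26 did not pass with either shRNA. TRIM25, which fell, held no match in its window.

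TRIM22 and TRIM5 are neighbours in RefSeq, parted by TRIM6, TRIM6-TRIM34 and TRIM34, none of them a member here. TRIM22 fell in all 4 comparisons with SCR, and TRIM5 passed in none. The 5 other genes with the pattern most like TRIM22 over the 18 arrays, after the chip effect was removed, were JMJD1C (Pearson's r = 0.91), CAMK2D (0.90), MOSPD2 (0.90), SGSH (0.90) and DCDC2 (0.90). Genes among the 5 most like TRIM21 were DCTD (0.87), C20ORF103 (0.87), MRPL27 (0.83) and PSMC1 (0.81). The arrays share groups, and these values are given as a description.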

How the data were processed

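RNA of 786-O cells was hybridized to 18 arrays (Illumina HumanHT-12 V4). Per the labels and the study's methods, the authors deposited log2 signals per gene, which they had background-corrected and brought to one distribution by quantile normalization before probes under a detection threshold of 0.05 were dropped and the remaining probes of each gene averaged. GenomeStudio and limma are named in the submitters' processing notes. A gene that failed the filter has no row, and signal near the background compresses a fall. Array number limits the precision. The chip (12 arrays on chip 1, 6 on chip 2) is the number under a tag spelled ChIP.

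All 13141 genes were fitted in limma 3.58.1 (R 4.3.3) with 6 groups and the chip, 11 residual degrees of freedom, empirical Bayes and Benjamini-Hochberg adjustment within a comparison. The fit was tested on simulated data with noise drawn independently for each array. That test held no spread shared by replicate number, so it cannot vouch for the p-values under such a spread. Named genes were all called members, all inducible-list members with a row, PML, MID1 and MID2 (MEFV has none), the 3 extremes each way of signal and of range, and the 5 closest non-members of TRIM21 and TRIM22. TRIM16L, TRIM37 and the genes named from the interferon signalling, ligase and E2 lists lie outside this rule and were picked after their values were seen. The members and lists were chosen with earlier results of these data known. A gene of the interferon signalling list and a gene close to TRIM21 are not reported here.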

Additional observations from a re-analysis of the deposited data

How the results depend on the processing

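The settings varied were the chip term (dropped, or exchanged for a replicate block), the arrays in the fit (those compared, or all but 1), the fold threshold (2, or none), the lowest 0.25 of genes by signal (removed), the scaling (median centring or cyclic loess) and the moderation (trend and robust). Without the chip term the calls fell to 0 with the PBRM1 shRNA and 0 with the KDM5C shRNA in VHL-/- cells, as they did at a fold of 2 (0 and 0). The changes of TRIM9, TRIM21, TRIM22, TRIM25 and TRIM37 described as passing did not pass without the chip term (adjusted p from 0.0581 to 0.690). Neither did TRIM44 with the KDM5C shRNA in VHL-/- cells (adjusted p = 0.0668). For TRIM9, TRIM22 and TRIM37, which differed between the chips (adjusted p = 8.81e-05, 8.22e-06 and 0.0382, limma), the chip difference then counts as spread. TRIM21, TRIM25 and TRIM44 did not pass for a chip difference (adjusted p = 0.316, 0.0766 and 0.521, limma). With no fold threshold the counts were 4 and 5 in VHL-/- cells, 1 and 1 in VHL+/+ cells, and 2, 2 and 1 for VHL with SCR, PBRM1 shRNA and KDM5C shRNA. Cyclic loess gave 1 call for VHL with SCR. With each array left out, counts ran from 1 to 3 for the PBRM1 shRNA and from 1 to 2 for the KDM5C shRNA in VHL-/- cells, from 0 to 1 for the KDM5C shRNA in VHL+/+ cells, and from 0 to 1 for VHL with SCR, with the PBRM1 shRNA and with the KDM5C shRNA. TRIM22 in VHL-/- cells stayed past the threshold without any 1 array, at -1.04 to -0.83 with the PBRM1 shRNA and -0.86 to -0.64 with the KDM5C shRNA. TRIM26 and TRIM56 with the PBRM1 shRNA in VHL-/- cells, neither of them passing, changed sign, over -0.144 to 0.0270 and -0.0273 to 0.145. With only the arrays of the comparison TRIM5 passed for the PBRM1 shRNA in VHL-/- cells (adjusted p = 0.0446), and 7 passing results were lost (adjusted p from 0.0564 to 0.120), the highest being TRIM44 with the KDM5C shRNA in VHL-/- cells. Under trend and robust moderation TRIM9 with the PBRM1 shRNA (0.0515) and TRIM37 (0.0507) were lost.

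Same-numbered arrays correlated from -0.17 to 0.72 (median 0.28) in their deviations from the group means. Arrays of different numbers had a median of -0.21, and 14 of 18 arrays matched best an array of their own number in another group. A spread shared by replicate number is therefore possible. The main fit held the chip term alone, and the replicate block was fitted as an alternative. With the replicate block the counts were 2 and 1 in VHL-/- cells for the PBRM1 and KDM5C shRNAs, as without it, while TRIM22 with the PBRM1 shRNA in VHL+/+ cells (adjusted p = 0.0509) and TRIM25 with the KDM5C shRNA in VHL-/- cells (adjusted p = 0.0524) no longer passed.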

Other observations

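Outside the TRIM family the E2 enzymes UBE2L3 and UBE2E3 passed with the PBRM1 shRNA in both VHL backgrounds. With the KDM5C shRNA they passed in VHL+/+ cells and not in VHL-/- cells. Of 13 measured E2 enzymes 3 (PBRM1 shRNA, VHL-/- cells) and 2 (VHL+/+ cells) passed, against 5.43% and 2.49% of all genes. For the KDM5C shRNA 1 and 2 passed, against 4.78% and 4.19%. UBE2L3, the E2 that serves HECT and RBR ligases, gave log2 signals of 8.56, 8.21 and 8.32 on the VHL-/- SCR arrays and 8.83, 8.75 and 8.79 with the PBRM1 shRNA, without overlap. It rose by 0.43 in VHL-/- cells and 0.39 in VHL+/+ cells with the PBRM1 shRNA (adjusted p = 0.0119 and 0.0334, limma) and by 0.48 with the KDM5C shRNA in VHL+/+ cells (adjusted p = 0.00867). In VHL-/- cells it differed by 0.33 with the KDM5C shRNA (adjusted p = 0.0519). UBE2E3 gave 9.75, 9.70 and 9.69 on the VHL-/- SCR arrays and 9.32, 9.42 and 9.36 with the PBRM1 shRNA. It fell by 0.35 and 0.36 with the PBRM1 shRNA (adjusted p = 0.00969 and 0.0141) and by 0.43 with the KDM5C shRNA in VHL+/+ cells (adjusted p = 0.00340), and differed by -0.23 with the KDM5C shRNA in VHL-/- cells (adjusted p = 0.0885). Neither reached the fold of 1.5, and both were picked out after their values were seen.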
